A study of Homo sapiens with 4 samples.

Results

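In 4 blocks of low CpG methylation in HEK293T cells, both ZNF274KO libraries carried more methylation than both WT libraries. They lie at chr1:57300001-58400000 (1100 kb), chr2:168100001-168700000 (600 kb), chr7:9000001-10300000 (1300 kb) and chr7:119200001-120300000 (1100 kb), all in hg19. They had been chosen because their methylation rose in ZNF274KO while they lie more than 1 Mb from the KRAB zinc finger protein (KZFP) genes and the protocadherin (PCDH) genes. The higher level in ZNF274KO is therefore the criterion of choice, and it is given as a description. Calls of edgeR inside the blocks use the same contrast, and they are printed for description too. The blocks hold 410 of the 283726 tiles of 10 kb with a CpG on autosomes and X, and 25119 of the 27710999 CpGs with a read. They are named below by a gene or a band: the DAB1 block (chromosome 1), the B3GALT1 block (chromosome 2), the 7p21.3 block and the KCND2 block (both chromosome 7). The nearest genes with a ZNF, ZFP, ZSCAN or ZKSCAN symbol were ZNF691, ZNF385B, ZNF12 and ZNF800, at 13982, 11607, 2253 and 6687 kb from the respective block.

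The study compared 2 EM-seq libraries of WT cells with 2 of cells whose ZNF274 gene had been deleted (ZNF274KO). All came from HEK293T, a human embryonic kidney line, and the sample titles name no treatment. EM-seq (enzymatic methyl sequencing) converts unmethylated cytosines and leaves methylated ones, so that a C read at a CpG counts as methylated. The deletion was made with a guide RNA on each side of the gene. The transfected cells were selected with puromycin and sorted singly into clones. The study does not state whether the WT cells of these libraries went through the same steps. The labels do not say whether the 2 ZNF274KO libraries come from the same clone, nor whether libraries of a group are separate cultures, so the spread between libraries may be technical and p-values measure no more than that spread. The body of ZNF274 (chr19:58694396-58724928) held 5158 and 4274 reads on CpGs in the WT libraries and 0 and 14 in the ZNF274KO libraries, as the labels state. The libraries held between 241598512 and 295114493 reads on CpGs, a median of 8 to 10 per CpG, and their level over autosomes and X lay between 58.4 and 60.4%, with the groups overlapping.

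Most CpGs of human cells are methylated, and CpG islands at promoters stay free of methylation. In cultured and tumour cells, large gene-poor stretches called partially methylated domains lose methylation, most of all at isolated CpGs flanked by A or T. These stretches usually lie in late-replicating chromatin at the nuclear periphery or the nucleolus, and their genes tend to be silent and tissue-specific. ZNF274 is a KRAB zinc finger protein that recruits TRIM28 and the histone methyltransferase SETDB1, which deposits H3K9me3, a mark of heterochromatin. The genes lying in the blocks belong to the nervous system, muscle and liver rather than to kidney. DAB1 is the intracellular adaptor of the reelin receptors in migrating neurons, KCND2 is the pore subunit of the Kv4.2 potassium channel, B3GALT1 is a galactosyltransferase of glycan chains, C8A and C8B encode subunits of the complement attack complex, and XIRP2 is an actin-binding protein of muscle.

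In windows of 300 bases with at least 6 CpGs and 40 reads in each library, counted from the block start, the median difference was 8.14 points in the DAB1 block (195 windows), 12.3 in the B3GALT1 block (70), 8.90 in the 7p21.3 block (97) and 7.24 in the KCND2 block (83). ZNF274KO was above WT in 175, 58, 84 and 69 of them. These counts are given for the blocks only, which were chosen for their rise, and nothing is read from them. The copies of the 20 bases around every CpG were counted on its chromosome, both strands included. They occurred once for 82.9% of the CpGs of the DAB1 block, 76.1% in the B3GALT1 block, 77.8% in the 7p21.3 block and 79.4% in the KCND2 block. Among these CpGs ZNF274KO was higher by 10.5, 15.2, 10.2 and 11.8 points, and among CpGs with 10 or more copies by 9.79, 11.5, 10.2 and 11.9 points. Copies on other chromosomes and diverged repeats were not counted.

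To show sequence of the blocks that stayed unmethylated, the 300 bases before the start of the 3 protein-coding genes with a CpG-dense start are printed along the gene's strand, 5′ to 3′, with CpGs in capitals. These sequences carried almost no methylation in any library.
DAB1, canonical start, minus strand, chr1:57889733-57890032, 50 CpGs: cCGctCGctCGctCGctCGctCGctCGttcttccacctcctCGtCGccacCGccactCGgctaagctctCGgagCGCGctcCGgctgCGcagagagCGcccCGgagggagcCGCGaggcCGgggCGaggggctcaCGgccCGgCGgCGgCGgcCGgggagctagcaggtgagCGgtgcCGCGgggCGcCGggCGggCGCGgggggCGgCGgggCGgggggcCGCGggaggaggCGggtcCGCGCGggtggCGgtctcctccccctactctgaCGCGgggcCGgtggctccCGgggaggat
B3GALT1, plus strand, chr2:168149211-168149510, 29 CpGs: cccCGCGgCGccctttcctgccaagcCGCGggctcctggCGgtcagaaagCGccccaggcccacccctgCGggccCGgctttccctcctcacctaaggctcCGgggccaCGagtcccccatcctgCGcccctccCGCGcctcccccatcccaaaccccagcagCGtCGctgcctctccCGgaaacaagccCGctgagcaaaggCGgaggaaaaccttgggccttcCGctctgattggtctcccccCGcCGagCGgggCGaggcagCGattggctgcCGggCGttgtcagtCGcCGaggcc
KCND2, plus strand, chr7:119912929-119913228, 19 CpGs: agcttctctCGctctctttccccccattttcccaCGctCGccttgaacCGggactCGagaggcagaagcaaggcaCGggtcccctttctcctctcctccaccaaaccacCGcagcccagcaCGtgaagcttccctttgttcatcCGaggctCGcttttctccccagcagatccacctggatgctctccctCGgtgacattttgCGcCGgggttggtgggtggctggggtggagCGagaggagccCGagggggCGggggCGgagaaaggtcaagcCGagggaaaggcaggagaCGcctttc
The DAB1 sequence had levels of 3.66 and 0.377% in WT and 3.53 and 2.38% in ZNF274KO. The B3GALT1 sequence had 0 methylated of 221 and of 222 reads in WT, and 3 of 196 and 8 of 233 in ZNF274KO. These reads are summed over its 29 CpGs, so the methylated ones may come from fewer molecules. The KCND2 sequence had 0.926 and 1.12% in WT and 0.885 and 0.847% in ZNF274KO. The differences of 0.932, 2.48 and -0.16 points are small beside the median differences of the 300-base windows.

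Across the whole DAB1 block the level was 36.2 and 39.8% in WT and 51.6 and 45.0% in ZNF274KO, giving means of 38.0 ± 2.58 and 48.3 ± 4.71% (SD, n = 2) and a difference of 10.3 points. Both ZNF274KO libraries were above both WT libraries, the lower of them by 5.15 points. In the B3GALT1 block the level was 19.7 and 28.3% in WT and 42.7 and 34.3% in ZNF274KO, means of 24.0 ± 6.10 and 38.5 ± 5.95% (SD, n = 2). This was the largest difference, 14.5 points, and also the largest spread, WT 2 being 8.63 points above WT 1 and ZNF274KO 1 being 8.42 points above ZNF274KO 2.

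The 2 blocks of chromosome 7 began lower and had nearly equal ZNF274KO libraries. In the 7p21.3 block the level was 17.4 and 20.9% in WT and 29.5 and 29.4% in ZNF274KO, means of 19.2 ± 2.47 and 29.4 ± 0.0322% (SD, n = 2) and a difference of 10.3 points. In the KCND2 block it was 14.9 and 20.2% in WT and 29.5 and 28.7% in ZNF274KO, means of 17.5 ± 3.75 and 29.1 ± 0.560% (SD, n = 2) and a difference of 11.6 points. Here the lowest ZNF274KO library exceeded the highest WT library by 8.49 and 8.57 points. Reads of the Watson and Crick strands, taken apart, gave differences of 10.2 and 10.4 points in the DAB1 block, 14.3 and 14.8 in the B3GALT1 block, 10.1 and 10.5 in the 7p21.3 block and 11.9 and 11.4 in the KCND2 block. The level of all autosomes and X differed by -0.54 points in the opposite direction.

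**Figure D1:**
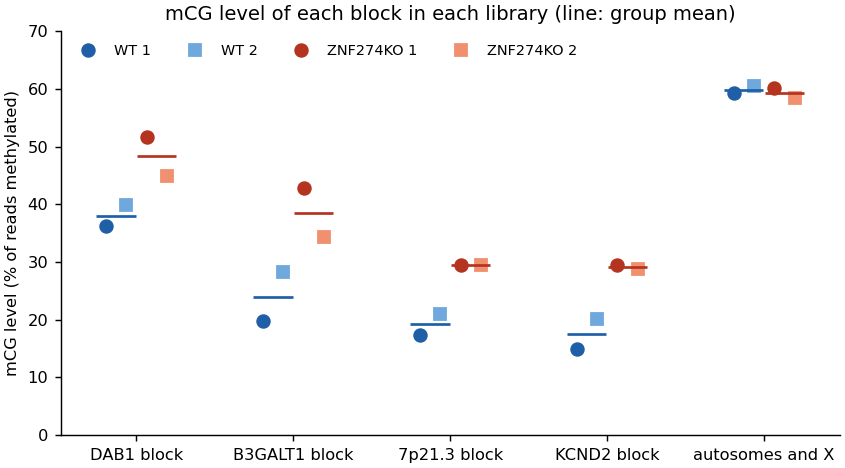
mCG level (percent of reads methylated, vertical axis) of each of the 4 blocks and of autosomes and X in the 4 libraries, with a line at each group mean. Both ZNF274KO points lie above both WT points in every block, while the 4 genome-wide values overlap between 58.4 and 60.4%, and WT 2 lies above WT 1 in each block.

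The rise was spread over the length of each block. In pieces of 50 kb, both ZNF274KO libraries were above both WT libraries in 82 of the 82 pieces inside the blocks, with differences from 5.40 to 21.5 points. The same held for 60 of the 160 pieces within 1 Mb of the blocks and for 9.71% of 50 kb tiles over autosomes and X. The piece with 21.5 points was in B3GALT1, and the lowest, 5.40 points, in the KCND2 block. In tiles of 10 kb, the mean of ZNF274KO was higher in 408 of 410 tiles, and in 110573 of the 282602 tested tiles of the genome. Both ZNF274KO libraries were above both WT libraries in 99 of 110 tiles of the DAB1 block and 55 of 60 of the B3GALT1 block. They were so in 122 of 130 tiles of the 7p21.3 block and 103 of 110 of the KCND2 block. Of all tested tiles of the genome, 12.1% did so. In 0 of the 410 tiles were both ZNF274KO libraries below both WT libraries, as they were in 24.2% of all tested tiles. The median tile difference was 10.8, 17.2, 11.0 and 11.3 points in the order above, against -0.66 points over all tested tiles.

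By edgeR's quasi-likelihood test with an adjusted p under 0.05, 7, 8, 10 and 13 tiles were called higher in ZNF274KO in the 4 blocks, 38 of 410 in all, and 0 lower. Over all 282602 tested tiles 0.495% were called higher and 0.0092% lower, and since the same contrast chose the blocks, nothing is read from their larger share. The number called hung on single libraries: with the remaining pair of libraries alone giving the spread, it was 4 without ZNF274KO 1, 50 without ZNF274KO 2, 86 without WT 1 and 269 without WT 2. The share of all tested tiles called higher in these fits was 0.335, 0.706, 0.868 and 1.71%, and 19, 31, 1123 and 273 tiles of the genome, none of them in the blocks, were called lower. The gap inside the groups had a shape of its own. WT 2 was above WT 1 in 370 of the 410 tiles (61.4% of all tested tiles), and ZNF274KO 1 was above ZNF274KO 2 in 108 of 110 and 58 of 60 tiles of the DAB1 and B3GALT1 blocks but in 72 of 130 and 62 of 110 tiles of the 7p21.3 and KCND2 blocks (70.8% of all tested tiles). In 334 of the 410 tiles ZNF274KO was higher by more than both within-group gaps, against 7.88% of all tested tiles. As the blocks were chosen for their rise, nothing is read from these shares.

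**Figure D2:**
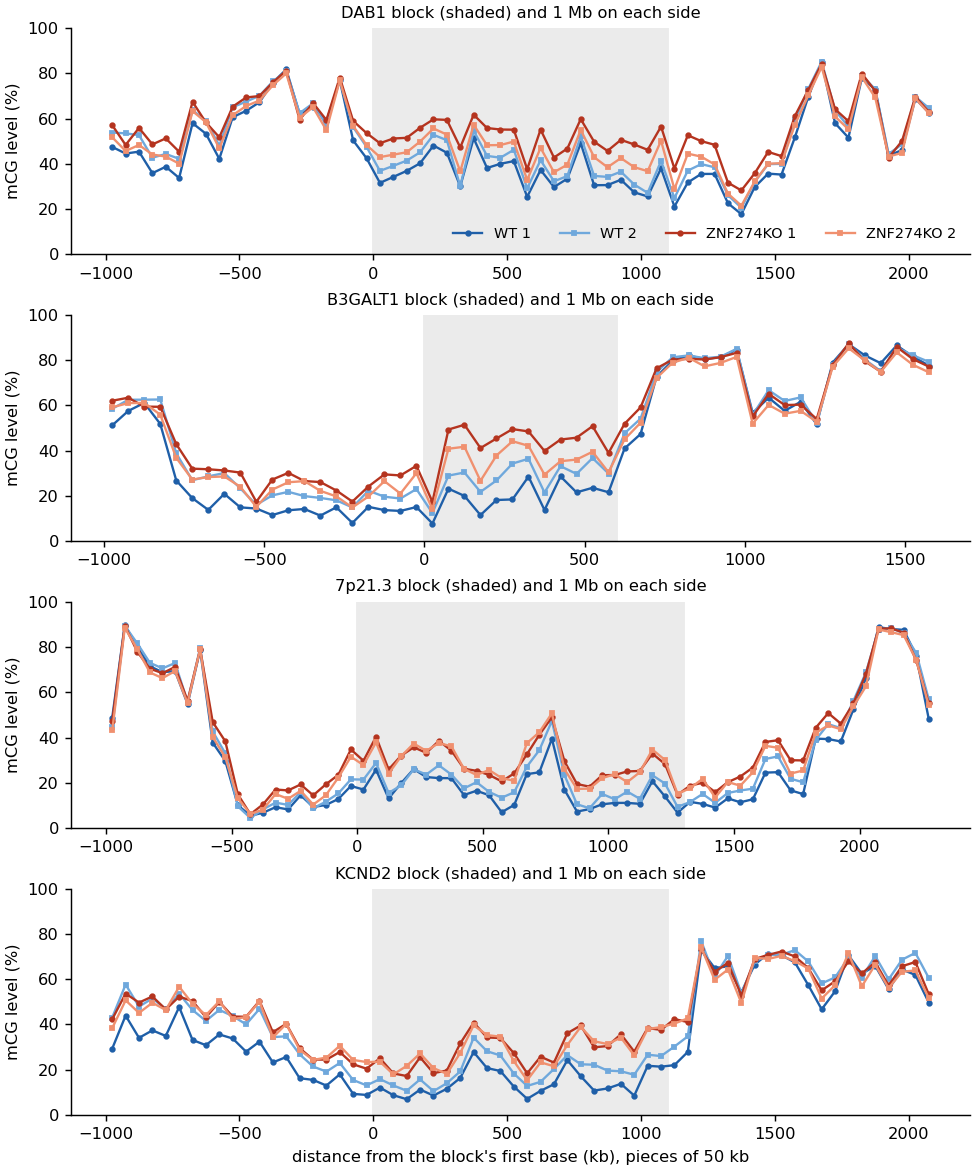
mCG level (percent, vertical axis) of the 4 libraries in pieces of 50 kb along each block (shaded) and 1 Mb on each side, against the distance from the block's first base in kb. The lines separate inside the shaded blocks, where both ZNF274KO libraries are above both WT libraries in 82 of 82 pieces, as they are in 60 of the 160 flanking pieces.

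The edges of the blocks were not sharp steps in the difference, except where the methylation of all libraries changed. On the right of the KCND2 block, the pieces at chr7:120300001-120350000 and chr7:120350001-120400000 still rose by 15.3 and 10.6 points, and the next, at chr7:120400001-120450000, had 72.9 and 77.0% in WT and 73.4 and 74.2% in ZNF274KO. This change lies at the 3′ end of KCND2, with TSPAN12, a membrane protein of the norrin pathway, beyond it. On the right of the B3GALT1 block, the piece at chr2:168700001-168750000 had a difference of 4.13 points and the piece at chr2:168800001-168850000, which reaches into the kinase gene STK39, had 0.586 points at WT levels of 72.8 and 74.7%. The right side of the DAB1 block stayed within the long DAB1 gene, and its first 2 pieces rose by 10.4 and 14.2 points.

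Over the 1 Mb to each side, the differences were 1.71 points left and 2.69 right of the DAB1 block, 6.05 and -0.97 around the B3GALT1 block, 1.57 and 3.31 around the 7p21.3 block and 7.40 and 0.372 around the KCND2 block. Both ZNF274KO libraries were above both WT libraries on the left of the B3GALT1 block, the left of the KCND2 block and the right of the 7p21.3 block. Within these flanks, pieces with a mean WT level under 50% had median differences of 4.92, 8.05, 5.70 and 8.80 points, in 18, 17, 26 and 20 pieces. Pieces from 50% up had 0.411, -1.40, -0.82 and -1.11 points.

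The size of the rise was set against the WT level of each tile, because low and intermediate levels leave room to rise. In tiles with a mean WT level under 10%, the median difference was 10.6 points in the blocks (65 tiles) and 0.0838 points in all other tiles (25041). Between 20 and 30% it was 13.5 points in the blocks (83 tiles) and 0.870 elsewhere (17109), and between 40 and 50% 8.84 points (31 tiles) and 0.453 (21045). Tiles of the blocks from 60 to 70%, of which there were 6, had a median of 3.87 points. Regions chosen for a rise differ from the rest in this way by construction, so the contrast describes the blocks and tests nothing.

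**Figure D3:**
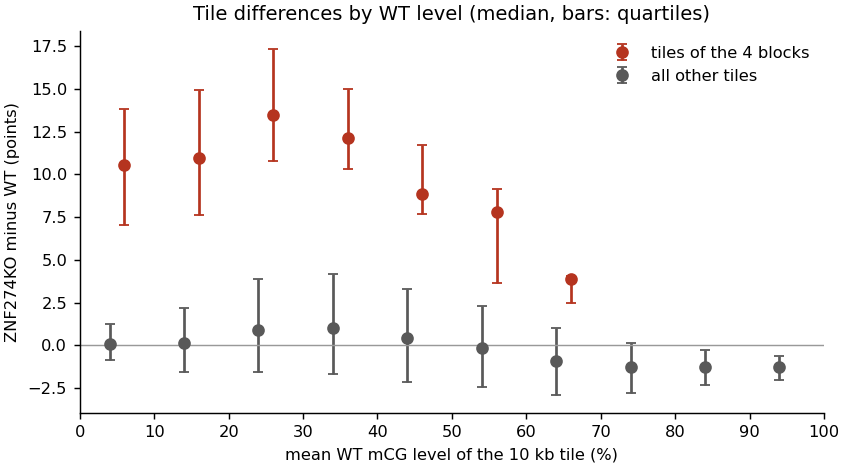
Difference between the group means (ZNF274KO minus WT, percentage points) of 10 kb tiles, in classes of 10% of mean WT level, for the tiles of the 4 blocks and for all other tested tiles. Points are medians and bars run from the lower to the upper quartile. The block medians lie between 3.87 and 13.5 points and the other medians between -1.30 and 1.02 points.

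The tiles named per block had to hold 50 CpGs. In the DAB1 block the 3 largest rises were at chr1:58270001-58280000 (17.3 and 24.3% in WT, 44.9 and 34.7% in ZNF274KO), chr1:58140001-58150000 (29.9 and 30.4%, then 52.3 and 44.5%) and chr1:57300001-57310000 (31.7 and 39.3%, then 58.5 and 48.6%). The first pair lies in DAB1 and the last before C8A. The smallest differences in this block, 0.435 points at chr1:58080001-58090000 and 1.44 points at chr1:57530001-57540000, were in DAB1 tiles with mean WT levels of 55.3 and 65.6%.

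In the B3GALT1 block the largest rises were 27.0, 26.2 and 25.6 points, at chr2:168190001-168200000, chr2:168200001-168210000 and chr2:168320001-168330000, all in B3GALT1. The first of these went from 23.1 and 29.0% in WT to 58.8 and 47.3% in ZNF274KO. The tile at chr2:168690001-168700000, at the block's right end, had 25 and 35.5% in WT and 33.1 and 26.9% in ZNF274KO, so that the groups overlapped with a difference of -0.23 points. The next smallest was 0.583 points at chr2:168520001-168530000.

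In the 7p21.3 block the largest rises were 18.3, 17.0 and 16.7 points, at chr7:9360001-9370000, chr7:9550001-9560000 and chr7:9240001-9250000. The tile at chr7:9550001-9560000 had 3.55 and 7.71% in WT and 19.6 and 25.6% in ZNF274KO. The smallest differences were 0.0149 points at chr7:10090001-10100000 and 2.92 points at chr7:9760001-9770000, a tile of 212 CpGs with a mean WT level of 59.3%. In the KCND2 block the largest rises were 29.3, 23.1 and 21.4 points at chr7:119950001-119960000, chr7:120130001-120140000 and chr7:120070001-120080000, all in KCND2. The first went from 12.7 and 20.6% in WT to 50.2 and 41.6% in ZNF274KO. The smallest were 2.51 points in the tile of the KCND2 promoter, chr7:119910001-119920000, and 2.63 points at chr7:119750001-119760000.

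In each of 4 tiles lies the first base of a protein-coding gene model. The C8A tile at chr1:57320001-57330000 had 30.7 and 35.5% in WT and 47.2 and 42.2% in ZNF274KO. The C8B tile at chr1:57440001-57450000 had 19.1 and 22.2% in WT and 37.5 and 24.6% in ZNF274KO. The B3GALT1 tile at chr2:168140001-168150000, with 166 CpGs, had 2.61 and 4.61% in WT and 5.79 and 7.05% in ZNF274KO. The KCND2 tile at chr7:119910001-119920000 had 28.9 and 31.5% in WT and 35.4 and 30.1% in ZNF274KO. The groups overlapped in the KCND2 tile and not in the other 3, and the means of the B3GALT1 tile differed by 2.81 points.

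The longest unbroken runs of 10 kb tiles in which both ZNF274KO libraries were above both WT libraries, flanks included, held 35 tiles at the DAB1 block (chr1:58230001-58580000), 26 at the B3GALT1 block (chr2:168040001-168300000), 61 at the 7p21.3 block (chr7:8850001-9460000) and 47 at the KCND2 block (chr7:119920001-120390000). Run lengths elsewhere in the genome are not given, and since the blocks were chosen for their rise, nothing is read from these lengths. Each of these runs crosses an edge of its block. The last coincides nearly with the body of KCND2, and its median difference was 15.6 points.

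At the level of single CpGs, fewer sites were free of methylated reads and more were intermediate in ZNF274KO. Among the 4258 CpGs of the KCND2 block covered by 5 or more reads in each library, 63.7 and 43.5% had no methylated read in WT, and 23.5 and 28.6% in ZNF274KO. Those with levels above 20 and under 80% made up 16.7 and 23.1% in WT and 40.7 and 38.6% in ZNF274KO, whereas sites at 80% or more were 5.31 and 6.79% against 8.74 and 8.90%. The 7p21.3 block behaved alike, with 61.1 and 50.1% of its 4636 CpGs without a methylated read in WT and 26.3 and 30.9% in ZNF274KO. In the B3GALT1 block (3081 CpGs) these shares were 49.2 and 28.8% in WT and 15.6 and 25.6% in ZNF274KO, WT 2 lying near ZNF274KO 2. In the DAB1 block (7550 CpGs) they were 23.7 and 18.7% in WT and 8.91 and 13.8% in ZNF274KO, and sites at 80% or more rose from 17.4 and 19.9% to 28.5 and 22.4%. A CpG with few reads can show no methylated read by chance, and the depth differs between libraries, with medians of 7 to 16 reads per CpG in the blocks, so these shares carry counting error.

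**Figure D4:**
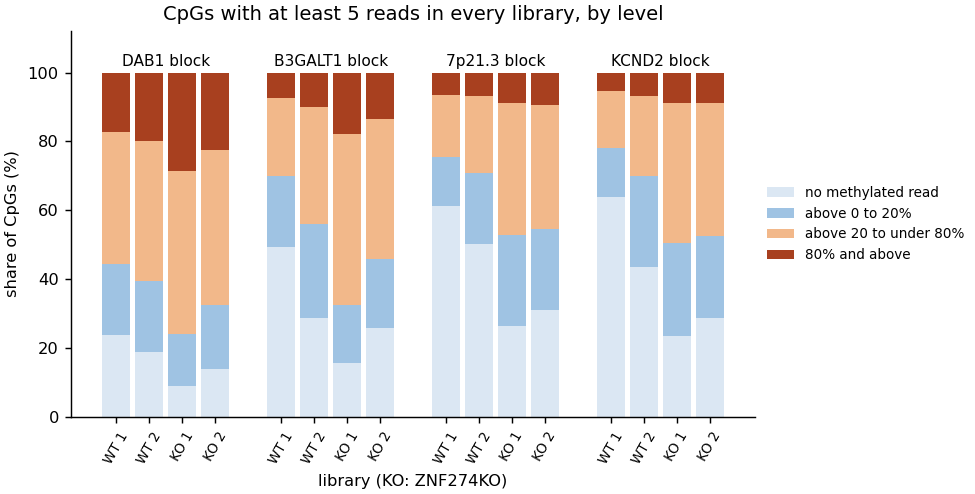
Share of CpGs (percent, vertical axis) in 4 classes of level, stacked for each library and block, for CpGs covered by 5 or more reads in each of the 4 libraries. In each block the class without a methylated read is smaller in each ZNF274KO library than in either WT library, and the class between 20 and 80% is larger.

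The blocks were poor in CpGs and rich in isolated ones. They held 7.08, 6.59, 5.77 and 5.36 CpGs per kb in the order DAB1, B3GALT1, 7p21.3 and KCND2, against 9.87 over autosomes and X, with a GC content of 40.8, 37.2, 34.8 and 34.9% against 40.9%. CpGs more than 35 bases from their neighbours on both sides (solo CpGs) with A or T on both flanks made up 17.9, 20.1, 23.4 and 22.8% of the CpGs with a read, against 12.5% over autosomes and X. In all libraries the level was lowest at these sites. In the KCND2 block solo CpGs flanked by A or T had 3.87 and 9.13% in WT and 17.0 and 16.9% in ZNF274KO, while CpGs with a close neighbour had 23.5 and 28.1% in WT and 37.5 and 35.9% in ZNF274KO.

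The rise was present in each of these classes. For solo CpGs with A or T on both flanks, ZNF274KO was higher by 11.8 points in the DAB1 block, 14.0 in the B3GALT1 block, 9.43 in the 7p21.3 block and 10.4 in the KCND2 block. For CpGs that were not solo it was higher by 8.86, 12.4, 9.53 and 10.9 points, and the groups did not overlap in any class of any block. Over autosomes and X the same classes differed by -0.27 and -0.72 points with overlapping groups.

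**Figure D5:**
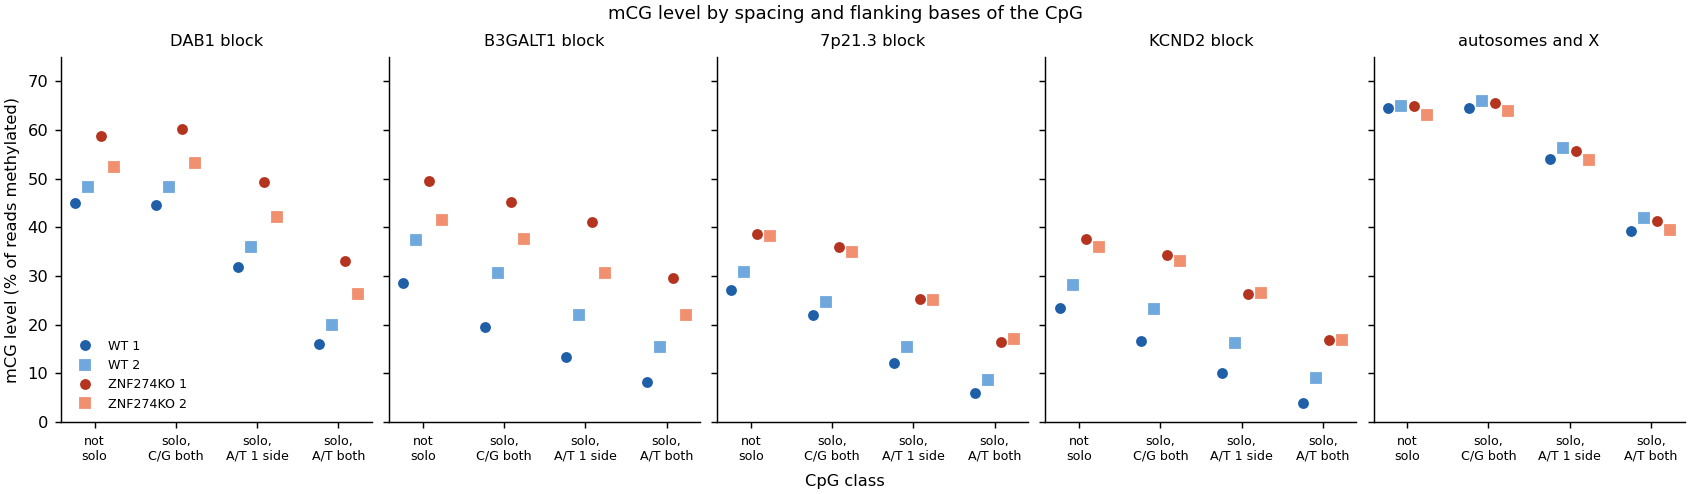
mCG level (percent of reads methylated) of CpGs grouped by spacing and flanking bases, per library, in the 4 blocks and over autosomes and X (solo: more than 35 bases from the next CpG on both sides). Levels are lowest at solo CpGs with A or T on both flanks in every panel. Both ZNF274KO libraries lie above both WT libraries in each class of the 4 blocks, not over autosomes and X.

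The windows of 1 kb with the most CpGs rose less, with the reads of each class summed. With 20 or more CpGs, the difference was 2.81 points in the DAB1 block (20 windows), 4.53 in the B3GALT1 block (16), 7.22 in the 7p21.3 block (30) and 4.23 in the KCND2 block (20), where the groups overlapped. With 1 to 4 CpGs it was 12.6, 18.2, 9.76 and 12.0 points, and with 10 to 19 CpGs 9.94, 15.8, 10.1 and 12.0 points. On chromosome 7 there was thus no fall between these 2 classes. Summing gives windows with many CpGs more weight. The window at the DAB1 start, chr1:57889001-57890000 with 111 CpGs, differed by only 0.168 points. The dense windows were mixed. The window at chr7:9765001-9766000, with 43 CpGs, had 92.9 and 86.9% in WT and 89.1 and 90.6% in ZNF274KO, and the window at chr7:119590001-119591000, with 39 CpGs, had 75.4 and 77.4% against 75.1 and 75.9%. Others were higher in ZNF274KO by more than the block as a whole. The window at chr7:119975001-119976000, in KCND2 with 21 CpGs, had 56.4 and 45.9% in WT and 74.3 and 71.1% in ZNF274KO, and that at chr7:9644001-9645000, also with 21 CpGs, had 27.6 and 35.9% against 51.8 and 49.6%. Across tiles, the difference and the number of CpGs had a Pearson r of -0.31 and a Spearman rho of -0.19 in the DAB1 block (110 tiles), and -0.47 and -0.38 in the B3GALT1 block (60). In the 7p21.3 block (130) they were -0.15 and -0.034, and in the KCND2 block (110) -0.14 and 0.0753, so that on chromosome 7 the ranks showed next to no relation. These values are descriptions of neighbouring tiles that share libraries and reads. The share of masked repeats was not computed, since the reference used here carries no repeat mask.

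Introns, exons and the rest of each block were summed apart, with no test between them. In the DAB1 block, introns went from a mean of 37.8 to 48.1% over 7170 CpGs, exons from 39.3 to 46.8% over 209, and CpGs outside protein-coding genes from 41.2 to 52.3% over 412. C8A (chr1:57320441-57383896, plus strand) had body levels of 28.2 and 33.4% in WT and 44.5 and 38.7% in ZNF274KO. C8B (chr1:57394880-57440056, minus strand) had 39.3 and 44.5% in WT and 54.1 and 48.3% in ZNF274KO. DAB1 (chr1:57460451-59012406, minus strand) runs past the block to the right. Its 6693 CpGs inside the block had 36.3 and 39.7% in WT and 51.7 and 44.9% in ZNF274KO. The antisense gene DAB1-AS1, with 141 CpGs, had 28.9 and 30.1% in WT and 51.3 and 41.7% in ZNF274KO, a difference of 17.0 points.

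The starts of these genes differed with their CpG number. Within 1 kb of the canonical start of DAB1, chr1:57889732, 172 CpGs had levels of 1.39, 0.893, 2.32 and 1.09% in the order WT 1, WT 2, ZNF274KO 1, ZNF274KO 2, and the groups overlapped. Around the CpG-poor DAB1 start at chr1:57756737, 12 CpGs had 15.3 and 17.5% in WT and 38.6 and 34.1% in ZNF274KO. Around the C8A start at chr1:57320470, 7 CpGs had 4.29 and 13.1% in WT and 22.8 and 16.5% in ZNF274KO. Around the C8B start at chr1:57431688, 10 CpGs had 57.1 and 58.7% in WT and 72.1 and 63.1% in ZNF274KO. The DAB1 gene model begins at chr1:59012406, outside the block.

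In the B3GALT1 block, 3602 CpGs of B3GALT1 (chr2:168149511-168730555, plus strand) had 20.8 and 29.7% in WT and 45.0 and 36.2% in ZNF274KO, a difference of 15.3 points. Introns of the block had a difference of 15.7 points, from a mean of 25.5 to 41.2%. Exons had 5.37 and 11.0% in WT and 14.7 and 10.1% in ZNF274KO over 149 CpGs, with overlapping groups. The 3′ end of XIRP2 (chr2:167744990-168116263, plus strand) had 6.63 and 14.2% in WT and 22.5 and 15.6% in ZNF274KO over 113 CpGs. Within 1 kb of the B3GALT1 start, 164 CpGs had 1.74 and 1.36% in WT and 0.725 and 2.48% in ZNF274KO, with no separation of the groups.

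In the KCND2 block, 2200 CpGs of KCND2 (chr7:119913229-120390391, plus strand) had 17.5 and 23.6% in WT and 35.3 and 34.6% in ZNF274KO, a difference of 14.5 points. Introns of the block went from a mean of 19.1 to 34.5%, and the 158 exonic CpGs had 44.6 and 47.6% in WT and 45.9 and 39.2% in ZNF274KO. Within 1 kb of the KCND2 start, 134 CpGs had 7.41 and 8.75% in WT and 5.15 and 6.67% in ZNF274KO, both ZNF274KO libraries below both WT libraries, by 2.17 points on the means. CpGs outside protein-coding genes rose by 9.81 points in this block, among them those of the long noncoding RNA gene LINC02476 (1736 CpGs), with 10.6 and 14.0% in WT and 22.3 and 22.2% in ZNF274KO.

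The 7p21.3 block overlapped no protein-coding gene, and all of its 7502 CpGs were intergenic or in noncoding genes. The 5 lncRNA genes with at least 5 CpGs in it had differences from 8.09 to 10.9 points. The nearest protein-coding gene was NXPH1, a secreted ligand of neurexins at 207 kb, with 15.1 and 16.9% in WT and 21.26 and 17.7% in ZNF274KO (edgeR adjusted p = 0.498).

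Genes near the blocks but outside them were tested with all 19829 protein-coding gene bodies, of which edgeR called 0.888% higher and 0.0303% lower at an adjusted p under 0.05. The adjusted p of the 9 other neighbours within 500 kb ran from 0.644 to 0.981. FYB2, an adaptor protein gene 14.6 kb left of the DAB1 block, had 48.3 and 53.6% in WT and 57.7 and 54.4% in ZNF274KO (edgeR adjusted p = 0.644), with both ZNF274KO libraries above both WT libraries. PRKAA2, a catalytic subunit of AMP-activated kinase, had 72.1 and 71.6% in WT and 73.4 and 70.8% in ZNF274KO. ENSG00000284686, an unnamed gene, had 65.4 and 68.5% in WT and 69.2 and 66.9% in ZNF274KO. PLPP3, the mitochondrial protease gene OMA1, STK39, TSPAN12, ING3 and CPED1 had mean WT levels from 64.6 to 77.6% and differences from -3.18 to 0.403 points. Among the genes overlapping the blocks, C8A, B3GALT1 and KCND2 were called higher and C8B, DAB1 and XIRP2 were not, which is a description since the blocks were chosen on this contrast. These 3 calls were lost without ZNF274KO 1 and without ZNF274KO 2, and that of C8A also without WT 1. With all libraries the 3 differences were 10.8, 14.5 and 14.3 points. They were 7.90, 10.2 and 14.0 points without ZNF274KO 1, and 13.7, 18.8 and 14.7 without ZNF274KO 2. That of C8A was 8.24 points without WT 1. By limma none of these 3 genes was called (adjusted p = 0.518, 0.569 and 0.257).

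Partner genes of the genes in the blocks, in 4 lists, were tested in the same fit: reelin signalling for DAB1, the Kv4 channel complex for KCND2, the beta-1,3-galactosyltransferases for B3GALT1, and terminal complement for C8A and C8B. Of 11, 8, 5 and 5 members outside the blocks, edgeR called 0, and limma also called 0, while 3, 0, 2 and 0 had an unadjusted p under 0.05 by edgeR. Of these, RELN was higher in ZNF274KO, and VLDLR, FYN, B3GALT4 and B3GALT6 were lower. Over all gene bodies 2.89% had such a p with a higher and 4.32% with a lower level in ZNF274KO. The median differences were -1.34, -0.55, 0.540 and -0.83 points, beside -0.93 points over all gene bodies.

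RELN, the extracellular ligand upstream of DAB1, was in WT about as weakly methylated as the 2 blocks of chromosome 7, with 15.9 and 15.6% in WT and 21.4 and 16.2% in ZNF274KO (edgeR adjusted p = 0.669). Without ZNF274KO 2, the library with the lower RELN level, its adjusted p was 0.0384 by edgeR, in a fit of a single ZNF274KO library whose spread is assumed to be that of the WT pair. VLDLR, a reelin receptor, had 63.8 and 65.6% in WT and 61.0 and 57.3% in ZNF274KO (edgeR adjusted p = 0.585). The kinase gene FYN, whose product phosphorylates DAB1, had 82.4 and 81.5% in WT and 79.7 and 79.5% in ZNF274KO (edgeR adjusted p = 0.668).

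Several long neuronal genes of the Kv4 list were also poorly methylated in WT, with overlapping groups in DPP6 and KCNIP4. DPP6, an auxiliary subunit of the channel, had 17.3 and 17.4% in WT and 17.6 and 16.3% in ZNF274KO. DPP10, a related subunit, had 11.8 and 12.4% in WT and 11.5 and 11.0% in ZNF274KO (edgeR adjusted p = 0.785). Both ZNF274KO libraries thus lay below both WT libraries in DPP10. KCNIP4, a calcium-binding subunit, had 14.3 and 14.7% in WT and 15.1 and 14.1% in ZNF274KO. KCND3, the paralog that encodes Kv4.3, was more methylated and its groups did not overlap, with 37.9 and 38.3% in WT and 45.2 and 38.8% in ZNF274KO (edgeR adjusted p = 0.713). Whether these differ from KCND2 was not tested.

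In the galactosyltransferase list, B3GALT6 had 69.1 and 73.0% in WT and 58.0 and 67.0% in ZNF274KO, and B3GALT4 67.2 and 62.4% against 53.7 and 59.7% (edgeR adjusted p = 0.543 and 0.557). B3GALT5 had 29.5 and 28.0% in WT and 34.1 and 27.1% in ZNF274KO. Among the complement genes, C6, which lies on chromosome 5, was the least methylated, with 7.30 and 7.83% in WT and 7.70 and 6.85% in ZNF274KO.

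Read depth, which was not used to choose the blocks, was compared as the share of all reads on CpGs of autosomes and X. The DAB1 block took 0.0419 and 0.0401% of the reads in WT and 0.0432 and 0.0420% in ZNF274KO, a ratio of 1.04. The B3GALT1 block took 0.0157 and 0.0153% in WT and 0.0134 and 0.0127% in ZNF274KO, a ratio of 0.843. The 7p21.3 block took 0.0228 and 0.0215% in WT and 0.0236 and 0.0230% in ZNF274KO, and the KCND2 block 0.0196 and 0.0184% and 0.02005 and 0.0197%, ratios of 1.05 and 1.04. The 4 tests gave p = 0.33 each (exact permutation test over libraries, two-sided, and 0.33 after Benjamini-Hochberg adjustment over the 4), the smallest value that 2 against 2 libraries allow.

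The lower share of the B3GALT1 block in ZNF274KO extended beyond the block. Against the reads of chromosome 2 the ratio was 0.912. Against the reads of the 1 Mb on each side, without the block, it was 1.01, the flanks having a lower share as well. The B3GALT1 block thus had a lower share of the reads and a higher level in ZNF274KO, and the part of the former in the latter was not tested. The other 3 blocks had ratios between 1.01 and 1.05 against all denominators.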

How the data were processed

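EM-seq libraries of WT (n = 2) and ZNF274KO (n = 2) HEK293T cells were analysed. The authors deposited, for each library, methylated and unmethylated read counts per CpG. Per the submitters' processing notes the build was hg19 and the tools included HISAT2. The study's methods name Msuite2 for alignment and calling. Counts of both strands were summed per CpG of autosomes and X, and then per 10 kb tile, block and gene body (GENCODE release 44 mapped to GRCh37). A level is methylated reads over all reads, in percent, and group means weight libraries equally. Median depth was 8 to 10 reads per CpG, and since PCR copies cannot be told from separate molecules, counts of reads understate the error.

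Tiles and gene bodies were tested on the whole table with edgeR 4.0.16 in R 4.3.3 (quasi-likelihood test on methylated and unmethylated counts, no replicate block, Benjamini-Hochberg adjustment, threshold 0.05), after the fit had been tested on simulated data. Tiles needed 5 CpGs and 20 reads in every library. Limma 3.58.1 on the log2 ratio of methylated to unmethylated counts (pseudocount 1) was an alternative. Read shares were compared by exact permutation. Other steps used Python 3.11.15, NumPy 2.4.6 and pandas 2.3.3.

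The blocks, gene lists and tests were chosen with earlier results of these data known. Tiles were named as the 3 largest rises and 2 smallest differences per block among tiles of at least 50 CpGs, plus promoter tiles. Genes named are those in or within 500 kb of a block, the listed genes that were called, and ZNF274. Noncoding genes, dense windows and the uncalled listed genes given by name were picked after their values had been seen. Copy numbers of 20-base stretches were added after the data had been seen, in place of a repeat mask. Alternatives covered read minimums, very deep sites, tile size, centring, limma, replicate blocks and leaving out each library. Same-numbered libraries did not deviate together (r = -0.134 over 282602 tiles), and the labels tie the numbers to no shared batch, so they were not treated as pairs. The sequences of the windows with the largest rise are not reported here.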

Additional observations from a re-analysis of the deposited data

How the results depend on the processing

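All alternatives drew on the same 4 libraries in which the blocks were chosen for their rise, so a kept direction is a description. The differences in level of the 4 blocks kept their direction under all alternatives run. Beside leaving out a library, they ranged from 9.95 to 11.5 points (DAB1 block), 14.3 to 17.9 (B3GALT1 block), 9.91 to 11.0 (7p21.3 block) and 11.4 to 12.2 (KCND2 block). Leaving out each library in turn gave 6.98 to 13.6, 10.2 to 18.9, 8.51 to 12.0 and 8.96 to 14.3 points. The number of called tiles, 38 of 410, depended on the fit. It was 153 with the replicate number as a block and 211 with the numbers crossed, an alternative chosen after seeing the data. It was 7 with limma, 78 after centring each library, 72 of 820 tiles of 5 kb, 5 of 82 tiles of 50 kb, and from 4 to 269 with a library left out. The cause was not tested. No tile of the blocks was called lower under these alternatives. Of all tested tiles, 0.587% were called higher after centring, 0.473% with tiles of 5 kb and 0.475% with tiles of 50 kb. The share was 0.882% with the replicate block, 0.964% with the crossed block and 0.216% with limma. Over the genome, where 1398 tiles were called higher and 26 lower, the blocked and crossed fits called 2493 and 2725 higher and 344 and 215 lower, limma 611 and 6, and the fits without a library 947 to 4843 higher and 19 to 1123 lower.

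Gene bodies called higher numbered 176, and 54 by limma, 254 with the replicate block, 246 with the crossed block and 97 to 214 with a library left out. Those called lower numbered 6, and 3 by limma, 26 with the replicate block, 19 with the crossed block and 1 to 34 with a library left out. Listed genes outside the blocks went from 0 to 1 called with a library left out. With the replicate block C8B, DAB1 and XIRP2 were also called (edgeR adjusted p = 0.0397, 0.0417 and 0.000893), and by limma C8A, B3GALT1 and KCND2 were not (adjusted p = 0.518, 0.569 and 0.257). The read share ratio of the B3GALT1 block reversed, from 0.843 to 1.01, when taken against the flanks without the block. With a library left out the ratios of the blocks were 1.02 to 1.06, 0.820 to 0.865, 1.02 to 1.09 and 1.01 to 1.08. With 2 libraries a group, a median of 7 to 16 reads per CpG in the blocks limits single CpGs and short windows more than whole blocks.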
